A study of Saccharomyces cerevisiae with 12 samples.

Results

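The large subunit of the cytosolic ribosome of Saccharomyces cerevisiae was represented by 81 gene probes of the 6256 on the array. They were the probes whose locus carries a standard name made of RPL, a number and an optional A or B, together with RPP0, RPP1A, RPP1B, RPP2A and RPP2B, the genes of the acidic stalk. Of these genes, 70 form 35 pairs of paralogues named A and B, and the other 11 have no partner of that kind. All 81 passed the filter on dim probes that kept 6083 genes, and 80 were detected on all 12 arrays. The exception was RPL7B, which was not detected on run 2 of the TAL strain at 70 mM or on run 2 of the TAL strain at 0 mM.

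The 12 arrays covered 6 groups with 2 runs each, and every sample was taken 6 h into exposure to the stated amount of furfural, a toxic aldehyde formed when plant biomass is broken down. The TAL-ADH strain, the TAL strain and the control strain were each measured with furfural (70 mM) and without it (0 mM). The strains were labelled MT8-1X/TAL-ADH, MT8-1X/TAL-405 and, for the control, MT8-1X/404-405, and the labels do not say which genes TAL and ADH stand for. Separate cultures are not stated for the runs, so p-values measure only how far these arrays spread, which may be technical.

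The large subunit carries the peptidyl transferase centre, which is made of ribosomal RNA, and the tunnel through which the new protein leaves. Its proteins are made in the cytoplasm. Most of them bind the ribosomal RNA in the nucleolus, nucleus and cytoplasm in a set order, and most are needed in equal numbers. In yeast most of them are encoded by a pair of duplicated genes whose products are identical or nearly so. Their genes share regulators such as Rap1, Fhl1, Ifh1 and Sfp1 and are known to be switched down together in many kinds of stress.

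Levels are given as log2 of the spot intensity over the array's own 75th percentile, taken across gene probes, so that a level of 0 is the intensity at that percentile. Each gene had 7 spots on an array, and the median SD between the spots of these genes ran from 0.0374 to 0.0738 log2 over the arrays. The 75th percentile itself lay between 2529 and 7414 intensity units, and no spot of these 81 genes was saturated. The arrays lay on 3 slides. One slide held TAL-ADH with furfural and the untreated control, another held both untreated groups of the TAL-ADH and TAL strains, and another held both furfural groups of the TAL and control strains. Of the comparisons made between 2 groups, only TAL-ADH minus TAL at 0 mM and TAL minus control at 70 mM therefore lie within 1 slide. In the other comparisons made, slide and group cannot be told apart. TAL-ADH at 70 mM and the untreated control also share a slide, but they differ in both strain and furfural. In bulk RNA, fewer cells that express a gene and less RNA per cell cannot be told apart either.

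The median level of the 81 genes was 2.80 and 2.88 on the TAL-ADH arrays at 70 mM, against 2.37 and 2.87 at 0 mM. It was -0.05 and -0.86 on the TAL arrays at 70 mM, and -0.40 and -0.84 on the TAL arrays at 0 mM. It was 0.18 and -0.10 on the control arrays at 70 mM, against 2.88 and 2.79 on the control arrays at 0 mM. The genes were thus high on both control arrays without furfural and on all 4 TAL-ADH arrays, and low on both control arrays with furfural and on all 4 TAL arrays. The order of the groups followed neither the furfural label nor the strain label alone. All arrays of the slide with TAL-ADH at 70 mM and the untreated control were high. All arrays of the slide with the furfural groups of the TAL and control strains were low. The remaining slide held high TAL-ADH arrays and low TAL arrays, and the share of slide in this order was not tested. The medians of the TAL arrays at 0 mM were among those of the TAL arrays at 70 mM and below both of the control arrays at 70 mM, and those of the TAL-ADH arrays at 70 mM overlapped those of the control arrays at 0 mM. Whether labels were exchanged between groups cannot be checked from these values, and every furfural and strain comparison takes the labels as given.

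**Figure D1:**
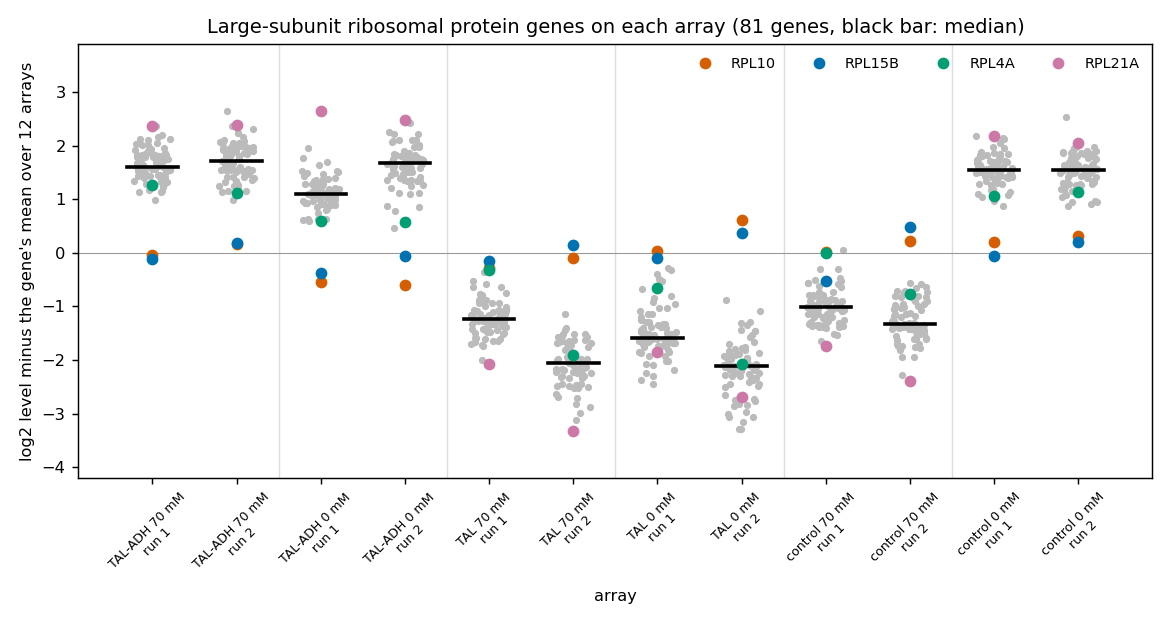
The log2 level of each of the 81 large-subunit genes minus that gene's own mean over 12 arrays is plotted for every array, with a black bar at the median, grey points for genes and 4 genes in colour. The grey points lie high on the 4 TAL-ADH arrays and both control arrays at 0 mM and low on the other arrays, while RPL10 and RPL15B stay near 0 throughout and RPL21A has the widest swing of the coloured genes.

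In the control strain, 77 of the 81 large-subunit genes were lower at 70 mM furfural than at 0 mM, and none was higher. The rule was an adjusted p under 0.05 (limma, Benjamini-Hochberg over all 6083 genes). The doses lay on different slides, so slide and dose cannot be told apart here. Over all genes, 21.5% were lower and 14% were higher by the same rule. The median change of the 81 genes was -2.67 log2, against -0.18 for all genes tested, and the changes of individual genes ran from -4.18 to -0.09. Both arrays at 70 mM lay below both arrays at 0 mM for 79 of the 81 genes, a pattern that 42.6% of all genes showed.

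The 5S particle, in which the proteins of RPL5, RPL11A and RPL11B bind 5S ribosomal RNA before it docks on the subunit, was lower in 3 of 3 genes, with a median change of -2.54. RPL5 had levels of 2.47 and 2.61 in the control strain at 70 mM, against 4.62 and 4.48 at 0 mM. Its change was -2.01 ± 0.26 (SE, 2 arrays against 2; adjusted p = 5.77e-04, limma). RPL11A changed more, by -3.04 ± 0.44, and RPL11B by -2.54 ± 0.41.

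The stalk, a flexible arm that recruits the GTPases of translation, was lower in 6 of 7 genes counted with its base, with a median of -2.82. RPP0, which anchors the stalk to the ribosomal RNA, had levels of 2.46 and 2.46 at 70 mM, against 4.78 and 4.84 at 0 mM in the control strain, a change of -2.35 ± 0.28 (adjusted p = 3.96e-04, limma). The genes of its acidic arms were unequal: RPP1B fell by 3.32 log2, RPP2A by 3.08 and RPP1A by 2.31. RPP2B did not pass the test, with levels of 3.12 and 1.79 at 70 mM, against 4.45 and 4.10 at 0 mM. Its change of -1.82 ± 0.70 had an adjusted p of 0.0691 in limma, and its arrays at 70 mM, though both below those at 0 mM, lay 1.33 log2 apart, the widest gap between runs among the 81 genes in that group. RPP2B passed the test in 6 of 19 other settings of the processing.

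All 12 genes listed for the mouth and wall of the exit tunnel fell, with a median of -2.82. RPL4A, whose protein narrows the tunnel, was counted instead among genes whose proteins bind ribosomal RNA early, and it did not pass the test. RPL25, whose protein sits at the tunnel mouth where the signal recognition particle docks, had levels of -1.22 and -1.12 at 70 mM, against 2.28 and 2.34 at 0 mM in the control strain. Its change was -3.48 ± 0.25, an 11.1-fold lower level (adjusted p = 5.58e-05, limma), and the runs of each dose lay within 0.10 log2 of each other. RPL17A, another tunnel gene, was at -0.39 and -0.36 at 70 mM, against 2.95 and 3.02 at 0 mM, a change of -3.36 ± 0.26. The smallest change among the 12 listed was that of RPL31B, at -1.91 ± 0.36.

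Of the 5 genes whose proteins join late or are made fused to ubiquitin, 4 fell, with a median over the 5 of -2.51. RPL40A, which encodes such a ubiquitin fusion, had levels of 0.08 and 0.13 at 70 mM, against 3.14 and 3.08 at 0 mM in the control strain, a change of -3.01 ± 0.27 (adjusted p = 1.06e-04, limma). RPL24A fell by 3.15 log2 and its paralogue RPL24B by 1.64, both encoding a protein that joins in the cytoplasm. The member of this group that did not fall was RPL10, described below with its arrays.

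Among the 26 genes whose proteins bind ribosomal RNA early, 24 fell, with a median of -2.84. RPL8A had levels of -1.89 and -2.47 at 70 mM, against 1.49 and 1.85 at 0 mM, and fell by 3.85 log2 (SE 0.48), a 14.5-fold lower level. Its paralogue RPL8B, at -0.58 and -1.09 against 2.50 and 2.65, fell by 3.41. RPL3, whose protein reaches toward the peptidyl transferase centre, changed less, with levels of 1.48 and 1.87 at 70 mM, against 3.80 and 3.69 at 0 mM, and a fall of 2.07 log2 (SE 0.24). For each of these genes the arrays of the doses did not overlap.

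All 6 genes listed under proteins that yeast can lack and still grow fell, with a median of -2.36. Each gene was counted in a single list, so this list is not a full set of such genes. RPL41A, which encodes one of the shortest proteins of yeast, had levels of -0.60 and -0.86 at 70 mM, against 1.62 and 1.20 at 0 mM, a change of -2.14 ± 0.48 (adjusted p = 8.70e-03, limma). All 22 remaining members fell, with a median of -2.61. Among them RPL28, a gene without a paralogue, was at 1.92 and 1.85 at 70 mM, against 4.29 and 4.26 at 0 mM. RPL30, whose protein is known to block splicing of its own transcript, was at 1.64 and 1.45 at 70 mM, against 4.04 and 4.01 at 0 mM. Their changes were -2.39 ± 0.31 and -2.48 ± 0.34.

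The largest change of all 81 was that of RPL21A. Its levels were -3.75 and -4.40 at 70 mM, against 0.17 and 0.04 at 0 mM in the control strain, a change of -4.18 ± 0.43 and an 18.1-fold lower level (adjusted p = 1.91e-04, limma). RPL27B followed RPL8A in size, with levels of -1.02 and -1.61 at 70 mM, against 2.39 and 2.33 at 0 mM and a change of -3.67 ± 0.43. At the other end, the smallest changes that passed the test were those of RPL37B (-1.61 ± 0.29), RPL24B (-1.64 ± 0.37), RPL34B (-1.68 ± 0.22) and RPL22B (-1.71 ± 0.40). RPL37B was at 1.67 and 1.44 at 70 mM, against 3.25 and 3.09 at 0 mM, so that its arrays did not overlap either.

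**Figure D2:**
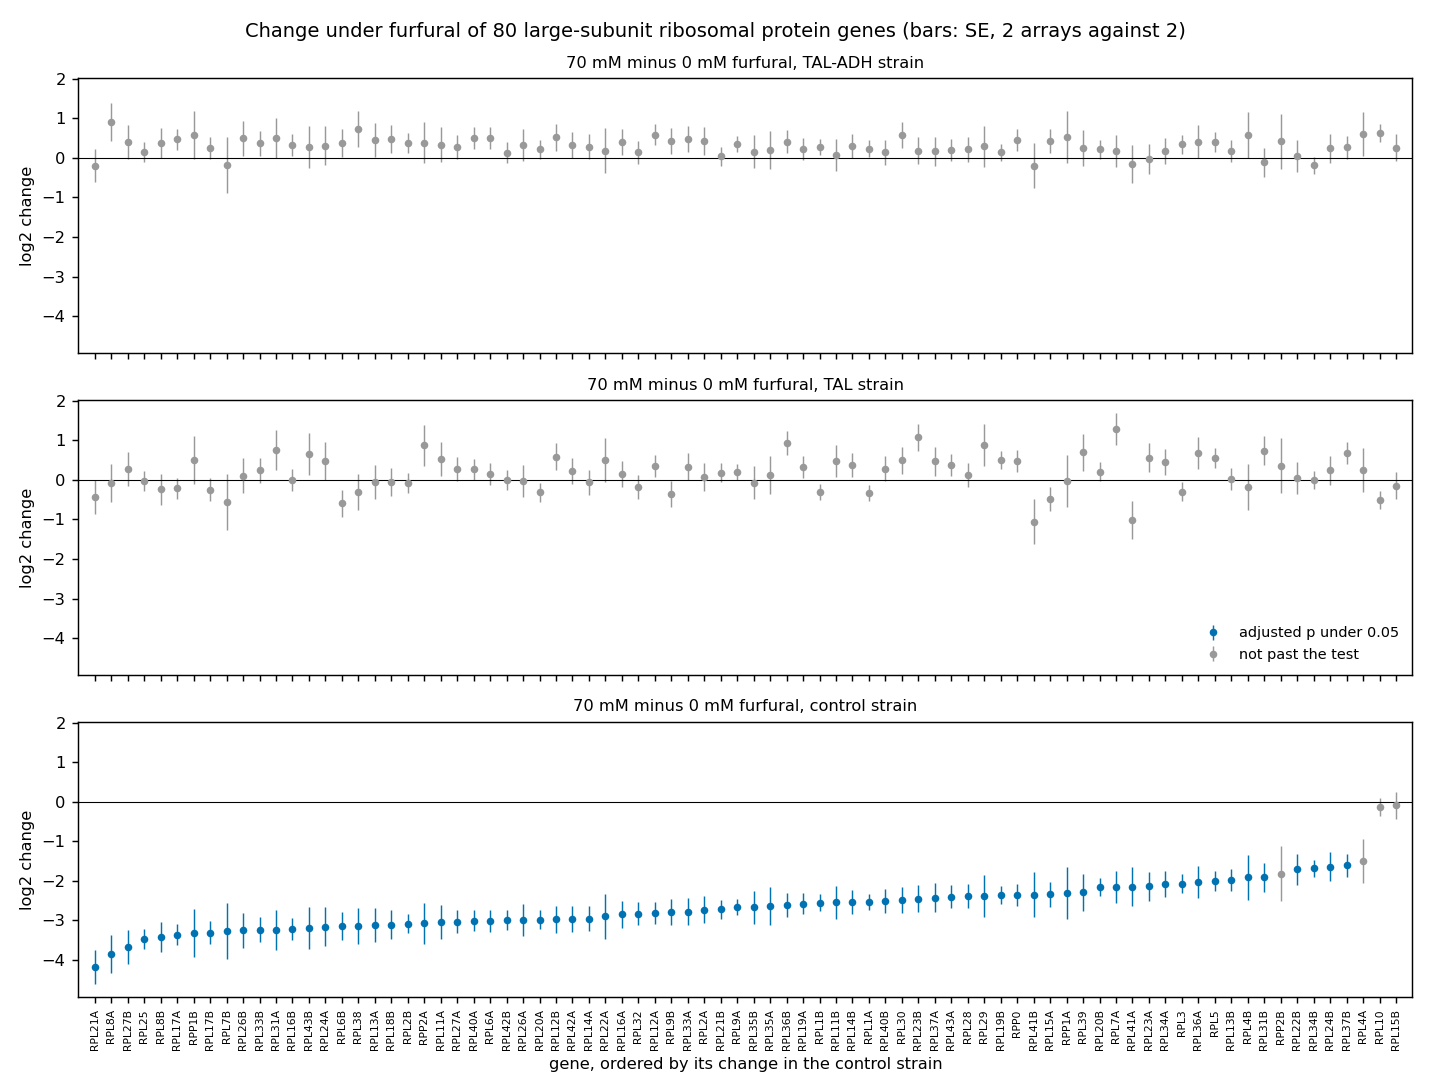
The log2 change at 70 mM minus 0 mM furfural, with its SE, is plotted for 80 of the 81 genes in the TAL-ADH, TAL and control strains, with genes in the order of their change in the control strain and genes past the test in blue. The 76 blue points are all in the control strain and lie below 0, RPL10 and RPL15B lie near 0 at the right, the points of the TAL strain scatter on both sides of 0, and most of those of the TAL-ADH strain lie slightly above it.

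RPL10 and RPL15B stood apart from the rest across all groups. The RPL10 protein joins the subunit last, in the cytoplasm, close to the catalytic centre. Its gene had levels of 4.07 and 4.27 in TAL-ADH at 70 mM, against 3.57 and 3.50 without furfural. In the TAL strain it had 3.83 and 4.002 at 70 mM, against 4.14 and 4.72 without furfural. In the control strain it had 4.13 and 4.33 at 70 mM, against 4.31 and 4.42 at 0 mM. The furfural arrays lay above the others in the TAL-ADH strain and below them in the TAL strain, and in the control strain the arrays of the doses overlapped. Its group means spanned 0.89 log2 in all, where those of RPL21A spanned 5.27.

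The change of RPL10 under furfural in the control strain was -0.13 ± 0.23 (adjusted p = 0.686, limma), and its doses overlapped. Across the 19 other settings of the processing that change stayed between -0.59 and -0.03 and never passed the test. RPL10 was also the gene farthest from the median of the 81 genes after each gene's own mean was removed. The root mean square of its 6 group mean deviations was 1.66 log2. Over those arrays its correlation with the median of the other 80 genes was -0.27, a description over arrays that share slides and scaling.

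RPL15B, which encodes a protein that binds ribosomal RNA early, was at -0.48 and -0.18 in TAL-ADH at 70 mM, against -0.75 and -0.42 without furfural. In the TAL strain it was at -0.52 and -0.22 at 70 mM, against -0.46 and 0.01 without furfural. In the control strain it was at -0.89 and 0.13 at 70 mM, against -0.42 and -0.16 at 0 mM. Within each strain the arrays of the doses overlapped, and the group means of RPL15B spanned 0.36 log2, less than the 1.01 log2 between the runs of the control strain at 70 mM. Its change under furfural in the control strain was -0.09 ± 0.34 (adjusted p = 0.859, limma), and its sign turned when 1 of 2 control arrays was left out. Its deviation from the median of the 81 genes was 1.60 log2 and its correlation with the median of the others was -0.19.

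After these genes the deviations were smaller: 0.85 for RPL21A, 0.60 for RPL8A, 0.60 for RPL4A, 0.57 for RPL41A, 0.54 for RPL43B and 0.54 for RPL37B, all in log2. A deviation over 0.5 log2 was found for 11 genes. Those of RPL21A, RPL8A and RPL43B came with wider swings than the median of the 81 genes, and those of RPL4A and RPL37B with narrower ones. RPL4A, whose protein narrows the exit tunnel, was at 3.47 and 2.71 in the control strain at 70 mM, against 4.55 and 4.61 at 0 mM. Its arrays did not overlap, but the change of -1.49 ± 0.56 did not pass the test (adjusted p = 0.0654, limma). RPL4A passed it in 6 of 19 other settings.

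The paralogues of a pair were compared by their changes, since levels of different probes are not comparable, and the signal that one paralogue's probe takes from the other's transcript was not tested. In the control strain, both genes were lower with furfural in 32 of the 35 pairs and 1 gene in the other 3. The difference between the changes of A and B had a median size of 0.44 log2, with a median SE of 0.20 when fitted to the difference itself. It was over 1 log2 in 9 pairs, and the A gene changed to a more negative degree in 17 of the 35. Pair differences are given as descriptions, with no test.

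The RPL15 pair differed most. RPL15A was at 1.42 and 2.24 in the control strain at 70 mM, against 4.004 and 4.34 at 0 mM, a change of -2.34 ± 0.31 (adjusted p = 6.91e-04, limma), where RPL15B had the levels given above. The log2 level of RPL15A minus that of RPL15B was 2.31 and 2.11 at 70 mM, against 4.42 and 4.50 at 0 mM, so the pair shifted by -2.25 ± 0.16. The A gene thus followed the other large-subunit genes and the B gene did not. Over the 12 arrays the correlation between RPL15A and RPL15B was 0.08, where the next lowest of any pair was 0.90, for RPL7A and RPL7B.

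The RPL24 pair shifted by -1.51 ± 0.20: RPL24A minus RPL24B was -0.43 and -0.74 at 70 mM, against 0.84 and 1.02 at 0 mM. The RPL21 pair shifted by -1.46 ± 0.41, with RPL21A minus RPL21B at -3.33 and -4.15 at 70 mM, against -2.18 and -2.37 at 0 mM. That shift was smaller with normexp background correction, at -1.08 ± 0.36, and with quantile normalization, at -1.22 ± 0.30. The RPL31 pair shifted by -1.32 ± 0.20, the RPP2 pair by -1.25 ± 0.35 and the RPL22 pair by -1.19 ± 0.25. In all 6 of these pairs the B gene changed less. In none of them did the arrays of the doses overlap in A minus B, a pattern that 28 of the 35 pairs showed. RPL22B was at -2.37 and -2.47 at 70 mM, against -0.75 and -0.66 at 0 mM, and RPL22A was at 0.49 and -0.11, against 3.07 and 3.11.

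The other pairs over 1 log2 were RPL13 (-1.14 ± 0.27), RPL7 (1.11 ± 0.44) and RPP1 (1.01 ± 0.29). In the RPP1 pair the A gene changed less. So it did in the RPL7 pair, but with normexp background correction that difference was -0.12 ± 0.56 and the direction turned. RPL7A was at -1.41 and -1.57 at 70 mM, against 0.71 and 0.60 at 0 mM. RPL7B was at -5.66 and -6.63, against -2.92 and -2.86, with 0.97 log2 between the runs at 70 mM. Without run 2 of the control strain at 70 mM, 6 pairs rather than 9 differed by over 1 log2.

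At the other extreme, RPL1A and RPL1B, which encode the same protein of the mobile stalk beside the tRNA exit site, changed by -2.53 ± 0.21 and -2.55 ± 0.21. Their difference was 0.02 ± 0.10, and over the 6 groups the mean of A minus B moved by no more than 0.07 log2. The pairs RPL35, RPL42 and RPL41 moved by 0.22, 0.27 and 0.35 log2 by the same measure, against 2.79 for RPL15 and 2.27 for RPL21.

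**Figure D3:**
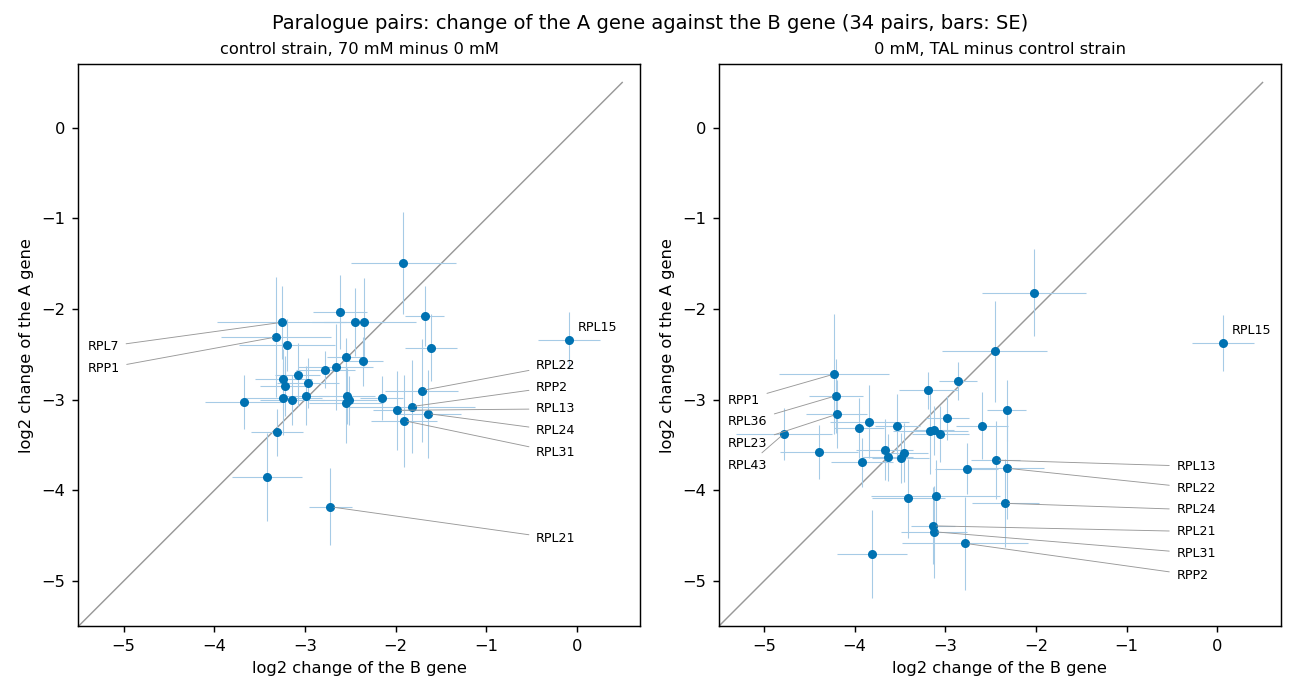
The log2 change of the A gene is plotted against that of the B gene for 34 of the 35 pairs, with SE bars and a line of equal change, for furfural in the control strain and for the TAL strain minus the control strain at 0 mM. Most pairs lie near the line, RPL15 lies far to the right of it in both panels, and the pairs that differ by over 1 log2 are named, 9 in the left panel and 11 in the right.

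In the TAL strain, no large-subunit gene passed the test under furfural (limma), where 0.0986% of all genes passed it in either direction. An unadjusted p under 0.05 (limma) was found for 5 of the 81, against 843 of all 6083 genes. The median change was 0.20 log2, against -0.08 over all genes, and it ranged from -0.18 to 0.60 when single arrays were left out. RPL7A had the highest change: it was at -1.78 and -2.46 at 70 mM, against -2.91 and -3.90 at 0 mM, a change of 1.29 ± 0.40 (adjusted p = 0.210, limma). RPL41B had the lowest, at 0.15 and -1.73 at 70 mM, against 0.75 and -0.21 at 0 mM, a change of -1.06 ± 0.57 with overlapping arrays. Its paralogue RPL41A had a change of -1.02 ± 0.48.

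The pair that shifted most in the TAL strain was RPL7, at 1.85 ± 0.44, with RPL7B at -5.78 and -7.33 at 70 mM, against -4.88 and -7.12 at 0 mM. RPL7B was not detected on the lower array of either dose. With normexp background correction the shift of RPL7 was 0.36 ± 0.56. RPL6 shifted by 0.74 ± 0.24.

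In the TAL-ADH strain, no large-subunit gene passed the test under furfural either (limma), where 0.0329% of all genes passed it in either direction. Without adjustment, 1 of the 81 had a p under 0.05 (limma), against 213 of all 6083 genes. The median change was 0.31 log2, against -0.01 over all genes. The arrays at 70 mM lay above both arrays at 0 mM for 36 genes, a pattern that 14.1% of all genes showed. RPL8A had the highest change: it was at 1.43 and 1.97 at 70 mM, against 0.50 and 1.102 at 0 mM, a change of 0.90 ± 0.48. RPL10, with a change of 0.63 ± 0.23, was the gene with the unadjusted p of 0.0241, and RPL41B had the lowest change, at -0.20 ± 0.57. No pair differed by over 1 log2, and the largest difference, in the RPL31 pair, was 0.62 ± 0.20.

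The change under furfural differed between strains by the interaction term. It was higher in the TAL strain than in the control strain for 70 of the 81 genes, against 5.13% of all genes, with a median difference of 2.90 log2. RPL25 changed by -0.02 ± 0.25 in the TAL strain, against -3.48 ± 0.25 in the control strain, a difference of 3.46 ± 0.36 (adjusted p = 1.06e-03, limma). The difference was 2.86 ± 0.29 for RPL9A and 2.86 ± 0.32 for RPL19B. It was also higher in the TAL-ADH strain than in the control strain for 71 genes, against 11.2% of all genes, with a median of 3.01. RPL17A changed by 0.47 ± 0.26 in the TAL-ADH strain, against -3.36 ± 0.26 in the control strain, a difference of 3.83 ± 0.37 (adjusted p = 6.59e-04, limma). These differences share the control arrays.

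Between the TAL-ADH and the TAL strain the change under furfural differed for no large-subunit gene (limma), and 0% of all genes passed. Of all 6083 genes, 406 had an unadjusted p under 0.05 (limma), and of the 81 only 1 had. That gene was RPL10, which changed by 0.63 ± 0.23 in the TAL-ADH strain, against -0.51 ± 0.23 in the TAL strain, a difference of 1.14 ± 0.33 (adjusted p = 0.717, limma). RPL7A had the lowest difference, -1.13 ± 0.57.

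Over the 3 strains together, without a term for slide, no large-subunit gene passed the test (limma), and 0% of all genes passed. Without adjustment, 11 of the 81 had a p under 0.05 (limma), against 1381 of all 6083 genes. The median change at 70 mM minus 0 mM was -0.73 log2. With slide as a block, 38 of the 81 genes were lower, against 1.45% of all genes, and the median was -2.62. That fit has as many terms as groups. Its furfural term equals TAL-ADH at 70 mM minus control at 0 mM, less TAL-ADH minus TAL at 0 mM, less TAL minus control at 70 mM. It is thus built from differences between strains and takes the effect of furfural to be the same in all strains, where the change differed from that of the control strain for 70 and 71 of these genes. For RPL25 it was -3.30, with 4.07 for TAL-ADH minus TAL at 0 mM and -0.57 for TAL minus control at 70 mM. The count is therefore not a count of genes shown to change under furfural in each strain.

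Without furfural, 79 of the 81 genes were lower in the TAL strain than in the control strain, against 13.5% of all genes, with a median difference of -3.34 log2 and 0.03 over all genes. RPL25 was at -1.87 and -1.56 in the TAL strain, against 2.28 and 2.34 in the control strain, a difference of -4.03 ± 0.25 and a 16.3-fold lower level (adjusted p = 2.73e-05, limma). RPL16B was at -1.52e-05 and -0.47 in the TAL strain, against 3.71 and 3.73 in the control strain, a difference of -3.95 ± 0.28. The difference of RPL43B was -4.78 ± 0.53. The exceptions were RPL10 (0.07 ± 0.23) and RPL15B (0.06 ± 0.34), whose arrays overlapped between the strains.

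In the same comparison 12 pairs differed by over 1 log2. RPL15 again led, at -2.44 ± 0.16, and RPL24 (-1.81 ± 0.20), RPP2 (-1.81 ± 0.35) and RPP1 (1.51 ± 0.29) were among the others.

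At 0 mM the TAL-ADH strain had higher levels than the TAL strain for 79 genes, against 12.7% of all genes, on arrays of 1 slide. The median difference was 3.22 log2. RPL25 was at 2.07 and 2.64 in the TAL-ADH strain, against -1.87 and -1.56 in the TAL strain, a difference of 4.07 ± 0.25 (adjusted p = 2.14e-05, limma). RPL21A had the largest, with 0.63 and 0.48 in the TAL-ADH strain, against -3.86 and -4.71 in the TAL strain and a difference of 4.84 ± 0.43. RPL9A, at 2.22 and 2.51 against -0.45 and -0.67, differed by 2.92 ± 0.20.

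RPL10 went the other way in that comparison and was the only large-subunit gene called lower, where 13% of all genes were. It was at 3.57 and 3.50 in the TAL-ADH strain, against 4.14 and 4.72 in the TAL strain, a difference of -0.89 ± 0.23 (adjusted p = 0.0227, limma). Both TAL-ADH arrays lay below both TAL arrays. The call held in 15 of 19 other settings, and the adjusted p was 0.159 without run 2 of the TAL strain at 0 mM. RPL15B, the remaining gene, differed by -0.36 ± 0.34 and was not called.

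Against the control strain at 0 mM, no large-subunit gene of the TAL-ADH strain passed the test (limma). Over all genes, 0.0164% passed in either direction. An unadjusted p under 0.05 (limma) was found for 1 of the 81, against 429 of all 6083 genes. The median difference was -0.17 log2. RPL8A had the lowest difference, with 0.50 and 1.102 in the TAL-ADH strain, against 1.49 and 1.85 in the control strain and -0.87 ± 0.48. RPL10 was next, at -0.83 ± 0.23, with both TAL-ADH arrays below both control arrays and an adjusted p of 0.426 in limma. RPL7B had the highest, 0.74 ± 0.71.

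At 70 mM the TAL-ADH strain had higher levels than the control strain for 77 genes, against 22.5% of all genes, with a median difference of 2.82 log2. RPL9A was at 2.72 and 2.69 in the TAL-ADH strain, against -0.34 and -0.33 in the control strain, a difference of 3.04 ± 0.20 (adjusted p = 3.22e-05, limma). RPL2B, whose protein binds beside the catalytic centre, was at 3.18 and 3.31, against -0.02 and -0.10. RPL21A had the largest difference, 4.44 ± 0.43. RPL10 (-0.06 ± 0.23), RPL15B (0.05 ± 0.34), RPL4A (1.58 ± 0.56, adjusted p = 0.0527) and RPP2B (1.90 ± 0.70, adjusted p = 0.0591) were not called in limma.

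Against the TAL strain at 70 mM, the TAL-ADH strain had higher levels for 79 genes, against 18% of all genes, with a median of 3.23. RPL1A was at 3.05 and 3.14 in the TAL-ADH strain, against 0.02 and -0.22 in the TAL strain, a difference of 3.19 ± 0.21. RPL17A differed by 3.93 ± 0.26 and RPL25 by 4.25 ± 0.25, the smallest adjusted p among the 81 being 2.13e-05 in limma. RPL21A, at 0.35 and 0.37 against -4.09 and -5.34, differed by 5.08 ± 0.43, a 33.8-fold higher level and the largest difference of any of these genes in the comparisons made. RPL10 (0.25 ± 0.23) and RPL15B (0.04 ± 0.34) were again not called.

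Between the TAL and the control strain at 70 mM, on arrays of 1 slide, no large-subunit gene passed the test (limma). Over all genes, 0.0822% passed it in either direction. An unadjusted p under 0.05 (limma) was found for 12 of the 81, against 984 of all 6083 genes. The median difference was -0.53 log2 and 79 of 81 differences were below 0. Both TAL arrays lay below both control arrays for 35 genes, a pattern that 18.3% of all genes showed. RPL43B had the lowest difference, with -0.09 and -1.64 in the TAL strain, against 0.37 and -0.24 in the control strain and -0.93 ± 0.53. Without run 2 of the TAL strain at 70 mM the median of the 81 genes was -0.08.

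**Figure D4:**
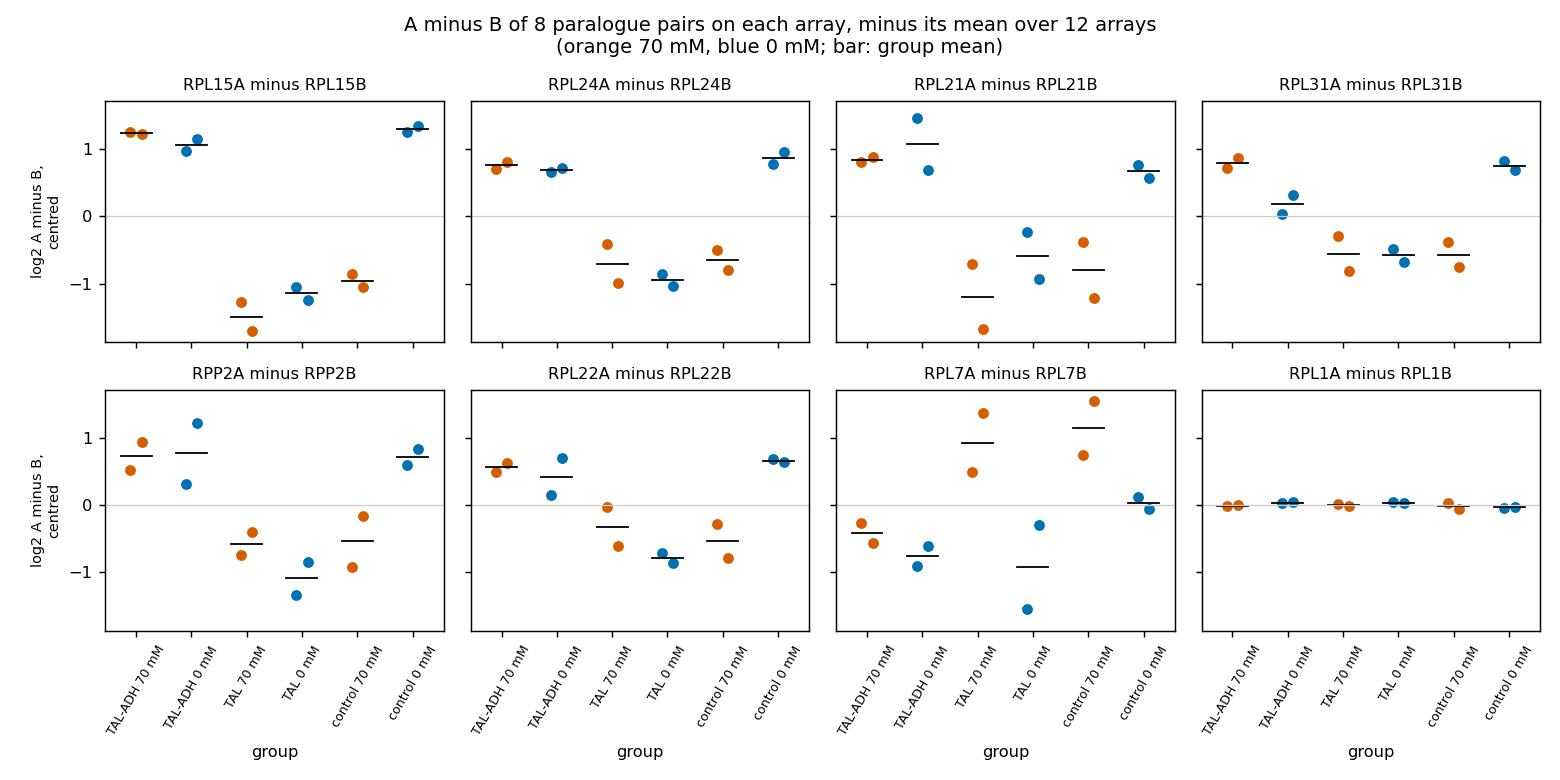
The log2 level of A minus that of B is plotted for 8 pairs on each array, minus its mean over 12 arrays, with orange points for 70 mM, blue points for 0 mM and a bar at each group mean. The first 6 pairs follow the groups in the same way, high in the TAL-ADH groups and the control strain at 0 mM, RPL7 is highest in the TAL and control strains at 70 mM and lowest in the TAL strain at 0 mM, with wide gaps between the runs of these groups, and RPL1 stays flat.

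The runs of a group were not equally close. Run 2 minus run 1 had a median over the 81 genes of -0.81 log2 in TAL at 70 mM, with 79 genes lower in run 2, and of -0.62 in TAL at 0 mM, with 76 lower. It was 0.51 in TAL-ADH at 0 mM, with 71 higher, and 0.07 in TAL-ADH at 70 mM. In the control strain it was -0.24 at 70 mM, against -0.03 at 0 mM. Over all genes the median of the same difference was between -0.11 and 0.02 in every group. The large-subunit genes thus moved together between the runs of the TAL groups and of TAL-ADH at 0 mM.

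Some genes had wide gaps between runs in several groups. RPP2B differed by -1.69 in TAL at 70 mM and by -1.33 in the control strain at 70 mM, where it was the lowest of the 81 genes. RPL41B had the lowest value in TAL at 70 mM, -1.88. RPL7B had a gap of -2.24 in TAL at 0 mM, where run 2 was not detected and its level is only a bound. RPL4A differed by -1.58 in TAL at 70 mM and by -0.76 in the control strain at 70 mM. RPL9A and RPL25 had small gaps, at -0.25 and -0.32 in TAL at 70 mM. RPL10 and RPL15B were higher in run 2 of both TAL groups, where nearly all other large-subunit genes were lower.

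**Figure D5:**
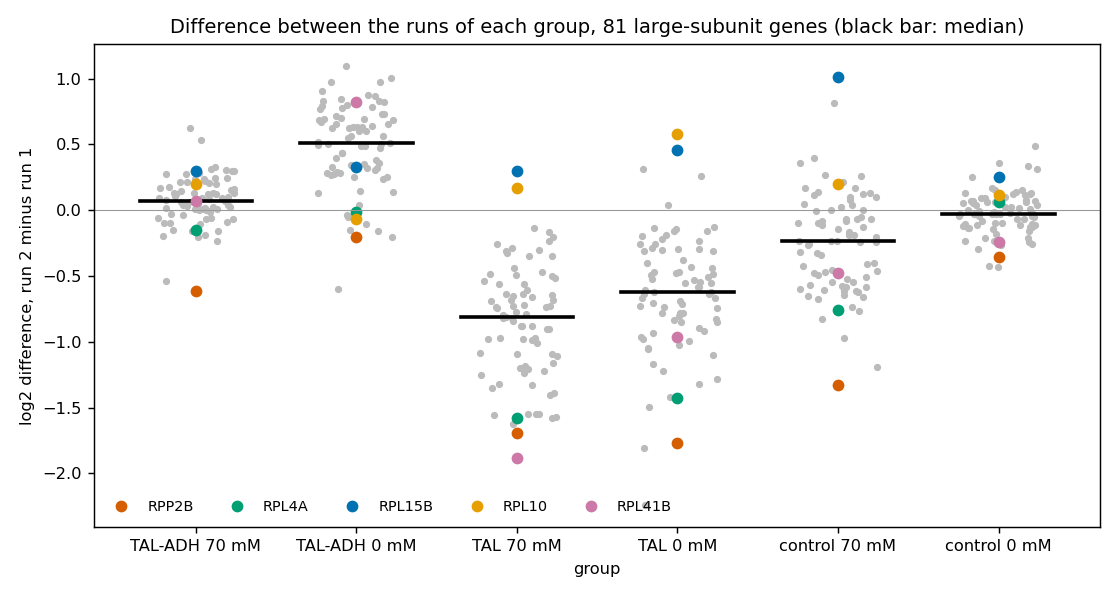
The log2 difference of run 2 minus run 1 is plotted for each of the 81 genes in each of the 6 groups, with a black bar at the median, grey points for genes and 5 genes in colour. The bars lie at -0.81 and -0.62 in the TAL groups and at 0.51 in TAL-ADH at 0 mM, and RPL10 and RPL15B lie above 0 in both TAL groups while RPP2B, RPL4A and RPL41B lie below the bar there.

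The small-subunit genes gave a similar count: in the control strain 55 of 56 RPS genes were lower under furfural, with a median of -3.00 log2, against 77 of 81 and -2.67 for the large subunit. The difference between the subunits was not tested.

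Of 12 listed regulators of ribosomal protein genes, 4 were higher and 1 was lower in the control strain under furfural, by the same test, where 14% of all genes were higher and 21.5% were lower. CRF1, a corepressor that competes with Ifh1 at these genes, changed by 1.86 ± 0.56 and STB3, a repressor of ribosome synthesis genes, by 1.04 ± 0.22. SCH9, a kinase that promotes ribosome synthesis, and DOT6, a repressor of ribosome biogenesis genes, were the other genes called higher. ABF1, a general regulatory factor at some ribosomal protein promoters, changed by -0.94 ± 0.25, and RAP1, which binds most of them, had a change of -0.56 ± 0.25 that did not pass the test.

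Of 35 listed assembly and export factors of the large subunit, 13 were lower, 1 was higher and 21 were not called, where 21.5% of all genes were lower and 14% were higher. The median change was -0.64, against -0.18 over all genes. NSA2, a nuclear assembly factor, changed by -2.15 ± 0.61 and RRS1, which helps bring the 5S particle in, by -2.07 ± 0.30. REH1, a late cytoplasmic factor, was the one that was higher, at 1.47 ± 0.29, and BUD20, an export factor, had a change of 0.60 ± 0.36 that did not pass. Of 5 dedicated chaperones of single large-subunit proteins, 1 was lower, a share near the 21.5% of all genes. It was BCP1, which accompanies Rpl23 and changed by -1.04 ± 0.27. SYO1, which carries Rpl5 and Rpl11, had a change of -0.96 ± 0.49 and SQT1, the chaperone of Rpl10, one of -0.44 ± 0.37, and neither passed the test.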

How the data were processed

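Total RNA of 12 samples was hybridised to single-colour Agilent arrays. The scanner files deposited by the authors hold one intensity per spot, which Agilent Feature Extraction 10.1.1.1 had background-subtracted and detrended, per the file headers. The authors' deposited table holds log2 values; that it is shifted per array and centred per probe was found from the values (r of at least 0.999995 with the scanner values treated so), with column medians from -0.170 to 0.0577, and its direction follows the labels. It served as an alternative only. The genome build of the probes is not given in the sources used here.

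Spots marked as outliers were left out, log2 intensity was averaged over the 7 spots of a probe and the array's 75th percentile subtracted. A gene was detected where over 50% of its spots were well above background and kept where detected on both arrays of a group, leaving 6083 of 6256. Loci were named through the RefSeq gene table (5756 matched). limma 3.58.1 in R 4.3.3 (lmFit, eBayes) fitted the 6 group means on all arrays, with an additive fit for the 3 strains together, and p-values were adjusted over all kept genes by Benjamini and Hochberg. Pair differences were fitted as A minus B over the 35 pairs.

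The 81 genes and all lists were chosen with earlier results of these data known. Genes were named by a written rule: the 6 largest and 6 smallest changes under furfural in the control strain, the genes not called there, the 6 pairs that differed most, the 8 genes farthest from the members' median, the leading genes of each other comparison, 9 genes chosen for their role, and 2 genes in each direction of each other list; others were chosen after their values were seen. Promoter and protein sequences were not analysed here. The values of 1 gene and its pair are not reported here, though the gene is in the counts and medians of the 81. The script was tested on simulated data. Alternatives were quantile normalization, normexp background correction with an offset of 50, the authors' table, the filter on dim probes, the arrays entering the fit, run or slide as a block, and leaving out each array. The number of arrays limits the precision: the median SE of a difference between groups was 0.31 log2. The main fit had no term for run number, which entered as an alternative only. Over 15 pairs of groups the correlation of run differences across genes was 0.0435 to 0.861, with a median of 0.429, and 14 were over 0.1. Run differences were thus partly shared between groups.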

Additional observations from a re-analysis of the deposited data

Results flagged for a closer look

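The change under furfural differed between strains by the interaction term (limma, adjusted over all genes), and in each case the higher value was in the TAL or TAL-ADH strain. Between TAL and control, 70 of the 81 large-subunit genes differed, against 5.13% of all genes, with differences of 2.86 log2 for RPL9A, 3.46 for RPL25 and 2.86 for RPL19B. Between TAL-ADH and control, 71 differed, against 11.2% of all genes, with 3.01 for RPL9A, 3.83 for RPL17A and 3.63 for RPL25. Both rest on the same control arrays, and both compare arrays of different slides, so slide and group cannot be told apart.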

How the results depend on the processing

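With 2 arrays a group and slides that follow the groups, the calls rest on few degrees of freedom. The count of large-subunit genes called stayed within 1.5 times its value under every alternative run, except for furfural over the 3 strains, where it was 38 with slide as a block, in a fit that takes furfural to act alike in all strains, and 0 without. Leaving out single arrays gave 69 to 79 genes for furfural in the control strain, 72 to 79 for TAL minus control and 73 to 80 for TAL-ADH minus TAL at 0 mM. At 70 mM it gave 73 to 79 for TAL-ADH minus control and 75 to 79 for TAL-ADH minus TAL. For the interactions it gave 52 to 72 (TAL minus control) and 57 to 76 (TAL-ADH minus control). In the other 6 comparisons it gave 0 throughout. Pairs over 1 log2 numbered 6 to 9, and genes deviating by over 0.5 log2 numbered 9 to 14 on leaving out arrays and 8 to 11 otherwise.

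With the run number as a replicate block, the counts were 79 for furfural in the control strain and 75 and 79 for the interactions of TAL and TAL-ADH with control, and no count moved by over 1.5 times; the samples share only a number. The change of RPL15B under furfural in the control strain was -0.59 to 0.42 when single arrays were left out, and reversed to 0.42 without run 1 at 70 mM and to 0.04 without run 2 at 0 mM; the cause was not tested. The RPL7 pair reversed to -0.12 with normexp. Among the 38 genes that were followed singly, leaving out 1 control array ended the call of RPL22B, RPL24B, RPL41A, RPL41B or RPL7B. The other members were not followed singly. Over all genes, the number called for furfural in the control strain ran from 1111 to 3053, against 2156. Quantile normalization moved the median change of all genes there to -0.06 from -0.18, with that of the large-subunit genes at -2.64.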
